A study of Mus musculus with 4 samples.

Results

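The genes described here were 55 genes of the cell cycle, 24 of S phase and 31 of G2 and M phase, among the 27514 genes shared by the 4 count tables. They were taken by name from a fixed list, all 55 were found, and they lie on 17 chromosomes. Their transcripts were counted in single cells of mouse small intestinal adenomas. Libraries labelled ApcMin came from C57BL/6 mice of genotype ApcMin/+;Lef1 +/+, and libraries labelled VApcMinL from C57BL/6 mice of genotype ApcMin/+;Lef1 fl/fl; Villin-Cre, in which Cre removes the floxed Lef1 alleles. All mice were labelled male, were 11 weeks old, and carried 1 mutant Apc allele, so that the controls also formed tumors. Villin drives Cre in the intestinal epithelium, so stromal and immune cells of the VApcMinL tumors keep their Lef1 alleles. From 3 to 10 tumors were dissociated together for a library and were not sorted, and the number of mice per library is not given in the sources used here. Each group had 2 libraries. Replicate 1 of both groups was made with reagent kit version 2 and replicate 2 of both with version 3, so each kit gave 1 pair of libraries.

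During S phase the MCM helicase opens DNA at replication origins, DNA polymerases with the PCNA clamp copy it, and ribonucleotide reductase and thymidylate synthase supply the nucleotides. In G2 and M phase the kinase CDK1 with cyclin A and then cyclin B drives entry into mitosis, kinetochore proteins and kinesins move the chromosomes, and the anaphase-promoting complex with its activators ends the phase. In the small intestine division takes place among the stem and transit-amplifying cells of the crypt, while absorptive enterocytes of the villus have left the cycle. E2F factors are known regulators of S phase genes, and the MuvB complex with B-MYB or FOXM1 binds the CHR element of G2/M genes.

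The promoters of the members are shown first, since the S and G2/M lists differ in the letters found there. RefSeq promoters on build GRCm38.p6, from 250 bases before to 50 bases after the gene start, were in the reference table for 48 members, 21 of S and 27 of G2/M. An E2F motif was searched as TTTCCCGC, TTTGGCGC, TTTCGCGC or TTTGCCGC, and a CHR motif as TTTGAA or TTCGAA, each on both strands. The E2F motif stood in 9 of the 21 S promoters, which is 42.9%, and in 1 of the 27 G2/M promoters, against 2.32% of all 27025 promoters in the table. The CHR motif stood in 20 of the 27 G2/M promoters, which is 74.1%, and in 4 of the 21 S promoters, against 19.4% of all promoters. The only G2/M promoter with an E2F motif was that of Cdk1, which also held 2 CHR motifs. Among the 9975 promoters of genes tested in adenoma cells the shares were 4.01% for E2F and 13.9% for CHR. The CCAAT box, on either strand, stood in 71.4% of the S promoters and 70.4% of the G2/M promoters, against 37.9% of all. These matches are descriptions of the letters and were not tested.

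Shown are the 200 bases before the gene start, 5′ to 3′ on the strand of the gene, for the 3 S members with the highest level in adenoma cells among those with an E2F motif in that stretch. Capitals mark the E2F motif. Mcm6 and Mcm7 encode subunits of the MCM helicase, and Cdca7 encodes a chromatin factor. The Mcm7 stretch lies on the minus strand at chr5:138171884-138172083, the Cdca7 stretch on the plus strand at chr2:72476019-72476218, and the Mcm6 stretch on the minus strand at chr1:128359706-128359905.
Mcm7: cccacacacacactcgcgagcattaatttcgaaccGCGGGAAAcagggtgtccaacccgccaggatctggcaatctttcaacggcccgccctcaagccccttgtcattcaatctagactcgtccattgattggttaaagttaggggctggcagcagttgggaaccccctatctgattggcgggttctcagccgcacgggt
Cdca7: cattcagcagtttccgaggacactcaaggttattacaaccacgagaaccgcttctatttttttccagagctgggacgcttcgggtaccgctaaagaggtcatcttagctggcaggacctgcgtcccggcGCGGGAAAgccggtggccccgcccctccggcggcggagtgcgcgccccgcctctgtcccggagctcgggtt
Mcm6: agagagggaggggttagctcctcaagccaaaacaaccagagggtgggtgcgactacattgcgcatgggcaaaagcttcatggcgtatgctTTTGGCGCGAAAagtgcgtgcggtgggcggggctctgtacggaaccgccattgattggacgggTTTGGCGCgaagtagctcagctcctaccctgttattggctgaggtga
The Mcm6 stretch held 3 E2F matches, 2 of which overlap in 1 run of capitals, and the other stretches held 1 each. It also held 2 CCAAT boxes, as did that of Mcm7, and that of Cdca7 held none.

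The next 3 stretches belong to the G2/M members with the highest level in adenoma cells among those with a CHR motif there, which the capitals mark. Top2a encodes the topoisomerase that untangles sister chromatids, Ube2c the ubiquitin-conjugating enzyme of the anaphase-promoting complex, and Mki67 the chromosome surface protein Ki-67. The Top2a stretch lies on the minus strand at chr11:99024190-99024389, the Ube2c stretch on the plus strand at chr2:164769729-164769928, and the Mki67 stretch on the minus strand at chr7:135716380-135716579.
Top2a: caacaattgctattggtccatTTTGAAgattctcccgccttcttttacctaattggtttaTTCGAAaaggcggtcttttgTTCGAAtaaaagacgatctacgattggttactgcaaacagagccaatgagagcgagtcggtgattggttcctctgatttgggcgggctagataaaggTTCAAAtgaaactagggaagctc
Ube2c: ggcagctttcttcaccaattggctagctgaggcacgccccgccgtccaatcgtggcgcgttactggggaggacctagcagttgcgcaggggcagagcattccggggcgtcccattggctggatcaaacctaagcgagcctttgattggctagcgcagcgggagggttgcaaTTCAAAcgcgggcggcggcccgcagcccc
Mki67: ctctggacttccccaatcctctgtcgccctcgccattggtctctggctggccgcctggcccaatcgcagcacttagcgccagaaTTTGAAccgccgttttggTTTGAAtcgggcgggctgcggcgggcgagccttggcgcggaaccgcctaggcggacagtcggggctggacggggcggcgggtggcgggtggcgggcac
Top2a held 4 CHR matches and 5 CCAAT boxes, Ube2c 1 CHR match and 5 CCAAT boxes, and Mki67 2 CHR matches and 3 CCAAT boxes. The CHR match of Ube2c began 29 bases before the gene start.

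The libraries held from 44660305 to 128247396 UMIs (unique molecular identifiers, each standing for 1 captured transcript 3′ end) in all barcodes. Barcodes with at least 2000 UMIs and at most 20% mitochondrial UMIs were kept as cells, which left from 2069 to 4214 cells per library and 11286 in all. ApcMin replicate 2 stood apart, since the mitochondrial limit removed 61.5% of its barcodes against 20.4% to 26.6% in the other libraries. Pairs of libraries shared from 0 to 9 cell barcodes. Both Lef1 and Xist went against the labels. Lef1 in adenoma cells was at 8.62 CPM (UMIs per 1000000) in ApcMin replicate 1 and 28.2 in VApcMinL replicate 1, against 35.2 in ApcMin replicate 2 and 22.0 in VApcMinL replicate 2, so it was higher in the VApcMinL library of the kit 2 pair. Lef1 UMIs are read at the 3′ end of the transcript, and whether the deleted part covers that end is not given in the sources used here. Xist was at 810 CPM in VApcMinL replicate 1 with Y-linked genes at 0.0264, and at 286 in VApcMinL replicate 2 with Y-linked genes at 76.7, although all mice were labelled male, while both ApcMin libraries had Xist under 0.21. Groups are named by their labels below.

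Cells were assigned to 5 gates from marker genes, none of which is a member, and 8312 of the 11286 cells fell into one of them. Cells are called adenoma-like where Wnt targets of Apc-mutant cells such as Notum and Nkd1 were high, crypt-like where Slc12a2, Lgr5, Olfm4 and other crypt markers were high without them, enterocyte-like from apolipoprotein and absorptive genes, secretory-like from goblet, Paneth, tuft and enteroendocrine markers, and lymphoid-like from T, B and plasma cell markers. The limits of the gates were set after the data were seen. Limits 1.5 times stricter kept 81.4% to 88.1% of the adenoma-like cells of a library but only 57.1% to 63.4% of the crypt-like cells. There were from 360 to 2221 adenoma-like, 101 to 285 crypt-like, 296 to 985 enterocyte-like, 91 to 274 secretory-like and 49 to 263 lymphoid-like cells per library. Notum, Nkd1, Wif1, Apoa1, Fabp1, Muc2, Cd3e and Jchain were each highest in their own gate in 4 of 4 libraries. These genes are among the markers that set the gates, so their order follows from the gating and is no check of it. Even so, 2 crypt markers were low in crypt-like cells of some libraries. Lgr5, a stem cell receptor gene, was at 16.0, 12.6, 23.5 and 27.4 CPM in crypt-like cells (kit 2 pair before kit 3 pair, ApcMin first in each) and no lower in adenoma-like cells of any library, at 16.0, 67.3, 80.2 and 31.9. Olfm4, a defining crypt stem cell gene, was at 881 and 729 CPM in the crypt-like cells of the kit 3 libraries but at only 13.6 and 3.98 in those of kit 2, where the gate rested on Slc12a2 at 256 and 214. Lymphoid-like cells were mostly plasma cells in ApcMin replicate 1, with 201 of 263, and mostly T cells in VApcMinL replicate 2, with 51 of 81.

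S and G2/M transcripts were most abundant in crypt-like and adenoma-like cells and least abundant in enterocyte-like cells. Levels are given as CPM, the UMIs of a gene per 1000000 UMIs of the gate. Each transcript gives 1 3′ end, so levels are not divided by gene length. Summed over the 24 S genes, adenoma-like cells had 1227 and 1134 CPM in ApcMin and VApcMinL replicate 1, and 1310 and 1401 in ApcMin and VApcMinL replicate 2 (1268 ± 114, SD, n = 4). The 31 G2/M genes together gave 1839, 1546, 1977 and 2506 (1967 ± 402). Sets of 4 values keep this order of libraries throughout, the kit 2 pair before the kit 3 pair and ApcMin first in each. Crypt-like cells had 1259, 1291, 2099 and 1348 for S and 1957, 2251, 3300 and 2435 for G2/M. ApcMin replicate 2 was the highest crypt library on both lists. Enterocyte-like cells had from 103 to 189 for S and from 81.1 to 174 for G2/M, so adenoma-like cells stood 7.40 to 12.7 times above them on S and 14.4 to 24.4 times on G2/M within the same library. Secretory-like cells lay between, at 486 to 747 for S and 778 to 1285 for G2/M. Lymphoid-like cells had 291 to 662 for S and 294 to 1754 for G2/M.

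**Figure D1:**
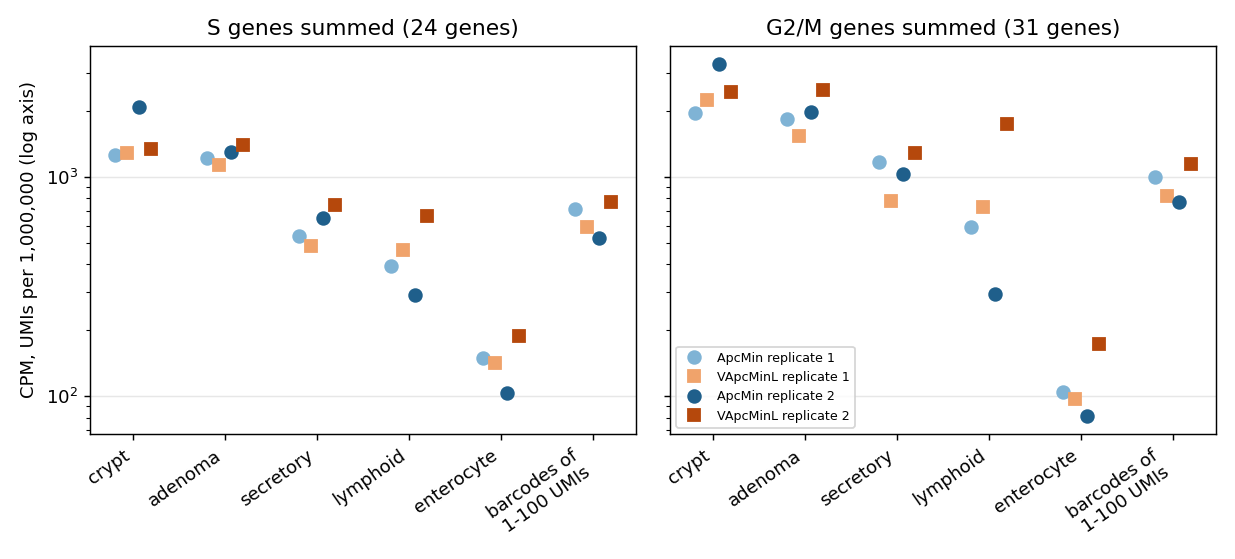
Summed level of the 24 S genes (left) and the 31 G2/M genes (right) in each gate and in barcodes of 1 to 100 UMIs, in CPM on a log axis, with 1 point per library (circles ApcMin, squares VApcMinL, light colors kit 2, dark colors kit 3). Enterocyte-like cells lie lowest, below barcodes of 1 to 100 UMIs in all 4 libraries, and lymphoid-like cells spread most.

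Barcodes of 1 to 100 UMIs, which hold free RNA, had 526 to 772 CPM for S and 771 to 1153 for G2/M. Enterocyte-like cells were below this in 4 of 4 libraries on both lists. Secretory-like cells were close to it, with G2/M at 1168 against 1003 in ApcMin replicate 1, 778 against 822 in VApcMinL replicate 1, 1036 against 771 in ApcMin replicate 2 and 1285 against 1153 in VApcMinL replicate 2. The part of free RNA in the secretory and lymphoid levels was not tested. The balance of the lists also differed between gates. G2/M transcripts outnumbered S transcripts by 1.36 to 1.79 times in adenoma-like and 1.55 to 1.81 times in crypt-like cells, but were at 0.681 to 0.917 of the S level in enterocyte-like cells.

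Among S members the highest level in adenoma-like cells was that of Pclaf, which encodes a PCNA-binding protein, at 229, 189, 167 and 190 CPM. Tyms, for thymidylate synthase, followed at 81.0, 85.6, 108 and 113, and both kit 3 libraries were above both kit 2 libraries. Pcna was at 102, 98.0, 75.3 and 70.1, with the opposite order of the kits. Slbp, which encodes the protein that binds histone mRNA stems, was the steadiest of the 4, at 81.0, 80.2, 71.1 and 77.5. The MCM subunits had means from 40.5 (Mcm2) to 74.3 (Mcm7), with Mcm3 at 64.6, Mcm5 at 53.3 and Mcm4 at 47.8. Of the S members whose promoters are shown, Mcm7 was at 60.4, 58.2, 83.6 and 94.9, Mcm6 at 57.6, 52.9, 69.8 and 72.3, and Cdca7 at 75.8, 56.3, 55.6 and 67.5. Both MCM genes were higher in the kit 3 libraries, and Cdca7 was not. The GINS subunit gene Gins2 averaged 36.9 ± 0.937 and the chromatin assembly gene Chaf1b 27.3 ± 6.30. Ribonucleotide reductase had Rrm1 at 72.4 ± 17.0 and Rrm2 at 52.4 ± 5.90 (SD, n = 4). The lowest S members were the origin factor Cdc45 at 12.7 ± 2.98, the cyclin gene Ccne2 at 14.1 ± 0.622 and the origin factor Cdc6 at 14.7 ± 3.69.

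Among G2/M members Top2a led in adenoma-like cells, at 240.5, 180.0, 258 and 330.4 CPM. Ube2c followed at 198, 174, 170 and 247, and Birc5, which encodes the survivin subunit of the chromosomal passenger complex, at 169, 144, 124 and 159. Mki67 was at 77.2 and 60.3 in the kit 2 libraries and at 171 and 195 in the kit 3 libraries, the widest gap between kits among the leading members. VApcMinL replicate 1 was the lowest library for Top2a and Mki67, and VApcMinL replicate 2 the highest for Top2a, Ube2c and Mki67. The condensin subunit gene Smc4 averaged 119 and the mitotic kinase gene Cdk1 97.9, with a spread between libraries of 30.0 and 9.66 (SD). Of the cyclins and kinases of mitosis, Ccnb2 averaged 60.0 ± 6.74, Ccna2 51.4 ± 11.3, Plk1 48.4 ± 9.16, Ccnb1 45.2 ± 7.55, Aurka 30.1 ± 3.29 and Aurkb 27.9 ± 4.79 (SD, n = 4). The centromere genes Cenpa, Cenpf and Cenpe averaged 93.0, 89.4 and 42.4, and the spindle assembly genes Tpx2, Hmmr, Kif11 and Kif20b 56.3, 37.8, 31.2 and 31.3. The spindle checkpoint kinases were low, with Bub1b at 22.3 ± 6.67 and Bub1 at 18.4 ± 5.55, as was the spindle gene Ckap2 at 18.8 ± 3.19. The lowest G2/M members were the kinetochore genes Nuf2 at 12.6 ± 1.33 and Ndc80 at 14.8 ± 6.23. Both kit 3 libraries exceeded both kit 2 libraries for 17 of 24 S and 19 of 31 G2/M members, as for 42.0% of all genes tested, and both were lower for 4 S members (Pcna, Gins2, Slbp and Ccne2) and 0 G2/M members, as for 14.4% of all genes.

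To see how the members divide between phases, each adenoma-like cell was thinned to 2000 UMIs. A cell was called G2/M where that list had at least 3 UMIs and led the S list. It was called S where the S list had at least 3 UMIs and equalled or led the G2/M list. Ties were thus counted as S, and their part in the S shares was not tested. A gene was left out of the call before its own level was read in the called cells, with its level in G2/M cells set against that in S cells. All 31 G2/M members were higher in G2/M cells in 4 of 4 libraries, with medians over libraries from 0.80 (Top2a) to 2.14 (Cenpf) on the log2 scale. Cenpf, a centromere protein gene, was followed by Cdc20, an activator of the anaphase-promoting complex, at 2.08, Ube2c at 2.03 and Nusap1, a spindle protein gene, at 2.02. The members nearest to S were Top2a, Smc4 at 0.88, Aurkb at 0.89, Cdk1 at 0.95 and Ccna2, for cyclin A, at 0.97. Of the 24 S members, 19 were higher in S cells in 4 of 4 libraries. The most marked were Cdc6 at -1.59, Ccne2 at -1.37 and Ccne1 at -1.24, which act at the start of S phase, and the next were Uhrf1 and Dtl at -1.04. Pclaf went the other way and was higher in G2/M cells in 4 of 4 libraries, at 0.38 with a range from 0.22 to 0.54. Tyms at 0.13, Rrm1 at 0.06, Pola1 at -0.03 and Cdca7 at -0.24 had libraries on both sides of 0. The phase calls rest on the other members, so these values describe how the lists sort and were not tested.

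**Figure D2:**
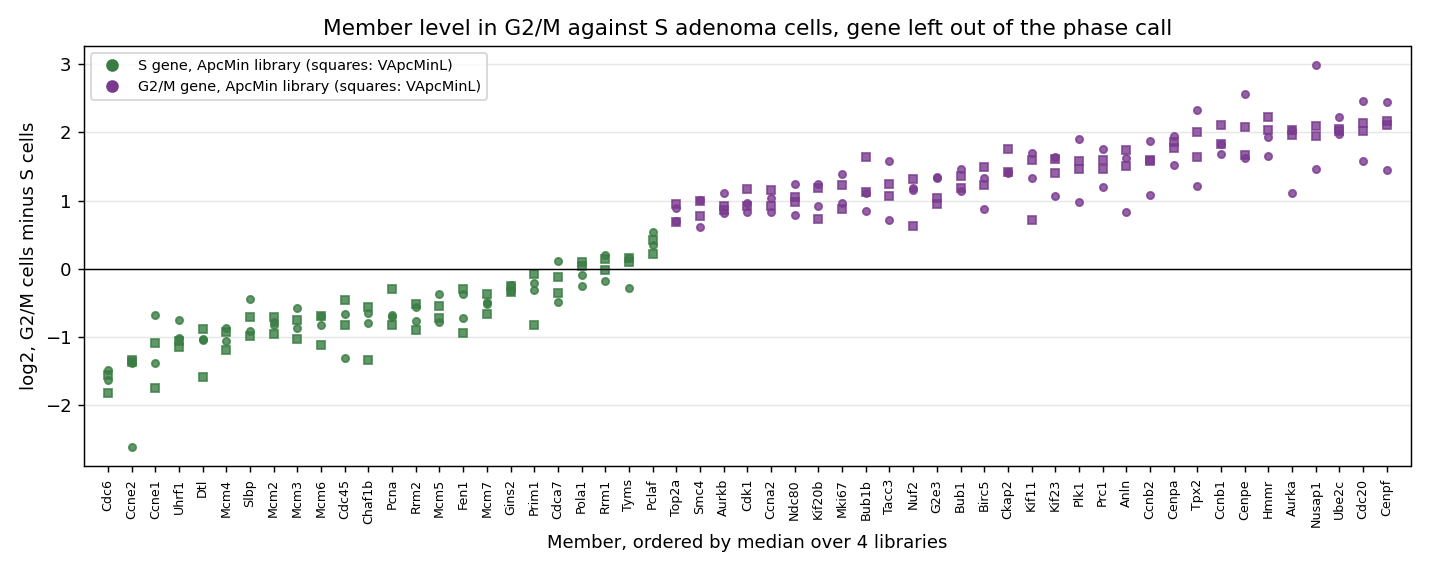
Difference in level between adenoma-like cells called G2/M and those called S for each of the 55 members, on a log2 scale, with the gene left out of its own call; each point is 1 library (circles ApcMin, squares VApcMinL), green for S and purple for G2/M members. The 31 G2/M members lie above 0 in every library, and Pclaf is the S member that lies above 0 in every library.

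The level of a member in called cells of either phase over that in cells called neither differed widely. Nusap1 had the highest median fold, 28.2, followed by Aurkb at 21.2, Prc1, a midzone protein gene, at 19.7 and Kif11, a kinesin gene, at 18.3. G2e3 at 2.11 and Ccnb2, for a cyclin B, at 2.89 were the lowest of the G2/M members. Cdca7 at 1.66, Slbp at 2.20 and Mcm4 at 2.58 were the lowest of the S members, and Pclaf at 10.1 and Rrm2 at 8.40 the highest. The median fold was 3.61 for the S list and 11.4 for the G2/M list. Cells called G2/M had more UMIs than the gate as a whole, with a median of 27264 against 20581 in ApcMin replicate 1 and 32510 against 24910 in VApcMinL replicate 2. Phase calls were close to their limit for 16.4% to 19.9% of the adenoma-like cells, in which the leading list had 2 or 3 UMIs.

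Both phases together held from 42.1% to 51.3% of adenoma-like cells. In the kit 2 pair, 20.8% of adenoma-like cells were in S in ApcMin (125 of 601, exact 95% Clopper-Pearson interval 17.6% to 24.3%) and 18.5% in VApcMinL (107 of 579, 15.4% to 21.9%). In the kit 3 pair, 17.2% were in S in ApcMin (62 of 360, 13.5% to 21.5%) and 20.9% in VApcMinL (465 of 2221, 19.3% to 22.7%). In G2/M were 30.4% (183 cells, 26.8% to 34.3%), 23.7% (137 cells, 20.3% to 27.3%), 26.9% (97 cells, 22.4% to 31.8%) and 30.4% (675 cells, 28.5% to 32.4%) in the same order. Without thinning the S shares were 15.5%, 14.5%, 15.3% and 15.3% and the G2/M shares 30.8%, 21.4%, 24.7% and 31.2%. Crypt-like cells had higher shares in every library for both phases, at 22.9% to 36.6% for S and 31.9% to 44.6% for G2/M. Summed levels were less uniform. In VApcMinL replicate 2 crypt-like cells stood at 0.962 times the adenoma-like level for S and 0.972 times for G2/M. In the other libraries they stood at 1.03 to 1.60 times for S and 1.06 to 1.67 times for G2/M. The intervals cover counting error only.

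Enterocyte-like cells were almost never called. Of 296 cells in ApcMin replicate 1 and 985 in ApcMin replicate 2, 0 were in S, which allows shares of up to 1.01% and 0.305% (3 counts of the total), and the highest enterocyte share was 1.59% in S and 1.27% in G2/M, both in VApcMinL replicate 2. Secretory-like cells had 6.74% to 18.7% in G2/M but only 2.45% to 6.2% in S. Goblet-like cells, the largest secretory class, had 24.6%, 12.2%, 5.79% and 14.8% in G2/M. Secretory-like cells called G2/M were far deeper than their gate, with medians of 27384, 28349, 50397 and 38394 UMIs against 12266, 14264, 13147 and 16785. Goblet-like cells showed the same gap, with 27384, 28349, 47457 and 39024 against 17255, 15343, 13519 and 19640. Doublets were not removed, and their part in these calls was not tested. Lymphoid-like cells had 4.18% to 9.88% in G2/M, of which T-like cells had 7.55% to 13.7%. The median UMIs of the gates ranged from 3351 in lymphoid-like to 37357 in crypt-like cells.

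**Figure D3:**
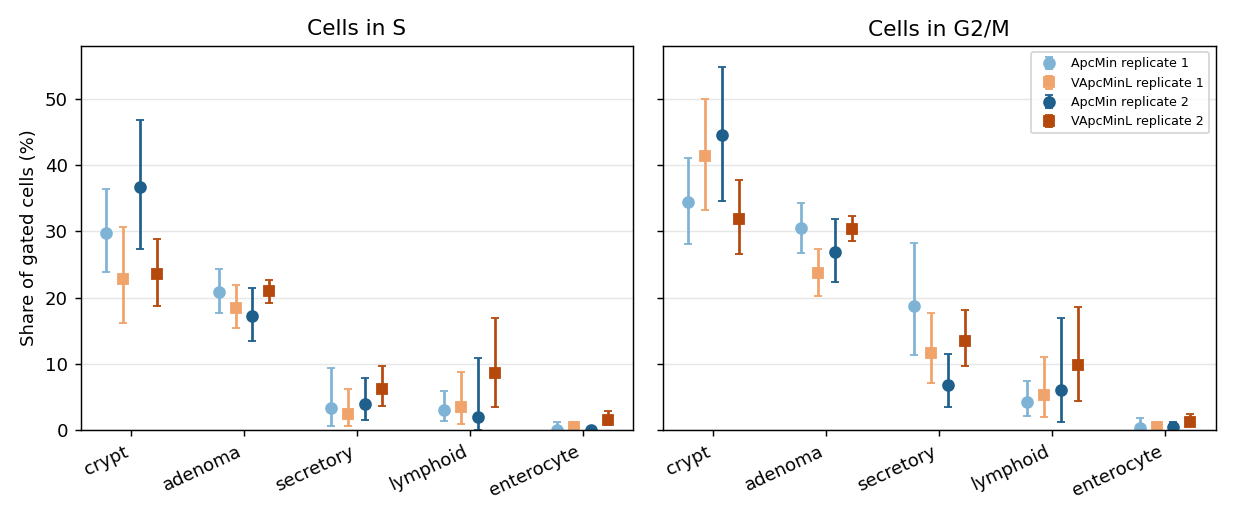
Share of cells in S (left) and in G2/M (right) for each gate, in percent of the gated cells of a library; points are libraries (circles ApcMin, squares VApcMinL, light colors kit 2, dark colors kit 3) and bars are exact 95% Clopper-Pearson intervals. Crypt-like cells lie above adenoma-like cells of the same library in both panels, and enterocyte-like cells lie at or under 1.59%.

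Adenoma-like cells were compared with crypt-like cells of the same libraries by edgeR's quasi-likelihood test on summed counts, with the library as a block and Benjamini-Hochberg adjustment over all 12297 genes tested. A member was called at an adjusted p under 0.05. Of the 55 members, 13 were called lower in adenoma-like cells, 4 of 24 S and 9 of 31 G2/M, and 0 were called higher. Over all genes, 15.2% were called lower and 17.7% higher, and the counts of members were not tested against these shares. All 31 G2/M members and 21 of 24 S members had a value below 0. The median log2 difference was -0.32 for S and -0.40 for G2/M, against 0.01 for all genes. When scaled by total UMIs alone the medians were -0.20 and -0.28 against 0.13 for all genes.

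The largest differences were those of Nusap1, Ccna2 and Mki67. Nusap1 was at 52.3, 37.3, 37.6 and 58.2 CPM in adenoma-like cells and at 67.7, 72.0, 105 and 64.4 in crypt-like cells. It was lower in adenoma-like cells in 4 of 4 libraries, though by little in VApcMinL replicate 2 (log2 difference -0.91, SE 0.30, edgeR adjusted p = 0.0239). Ccna2 was at 64.7, 47.1, 38.4 and 55.4 in adenoma-like and 81.3, 91.0, 90.5 and 64.2 in crypt-like cells (-0.84, SE 0.26, edgeR adjusted p = 0.0170). Mki67 was at 77.2, 60.3, 171 and 195 in adenoma-like and 87.7, 116, 372 and 244 in crypt-like cells, lower in 4 of 4 libraries (-0.81, SE 0.25, edgeR adjusted p = 0.0156). The other G2/M members called lower were Birc5, Ccnb2, Kif23, Aurkb, Nuf2 and Smc4, from -0.74 to -0.54. The S members called lower were Prim1, the primase gene, at -0.73, the flap nuclease gene Fen1 at -0.71, Mcm6 at -0.61 and Cdca7 at -0.44. Of the members not called, Ccne2 at 0.20, Ccne1 at 0.18 and Mcm4 at 0.06 were the only ones above 0. Ccne2 was at 15.0, 14.0, 13.7 and 13.7 CPM in adenoma-like and 9.30, 11.3, 16.9 and 9.21 in crypt-like cells, Ccne1 at 21.3, 21.7, 26.3 and 26.1 against 14.5, 14.3, 26.8 and 23.1, and Mcm4 at 33.5, 33.2, 59.1 and 65.4 against 26.5, 30.5, 58.2 and 53.7. The count fell to 1 without VApcMinL replicate 1, which left only Fen1, to 3 without ApcMin replicate 2, to 8 without ApcMin replicate 1 and to 0 without the library block, and rose to 18 without VApcMinL replicate 2. Whether crypt-like cells without Olfm4 in the kit 2 libraries bear on this difference was not tested.

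**Figure D4:**
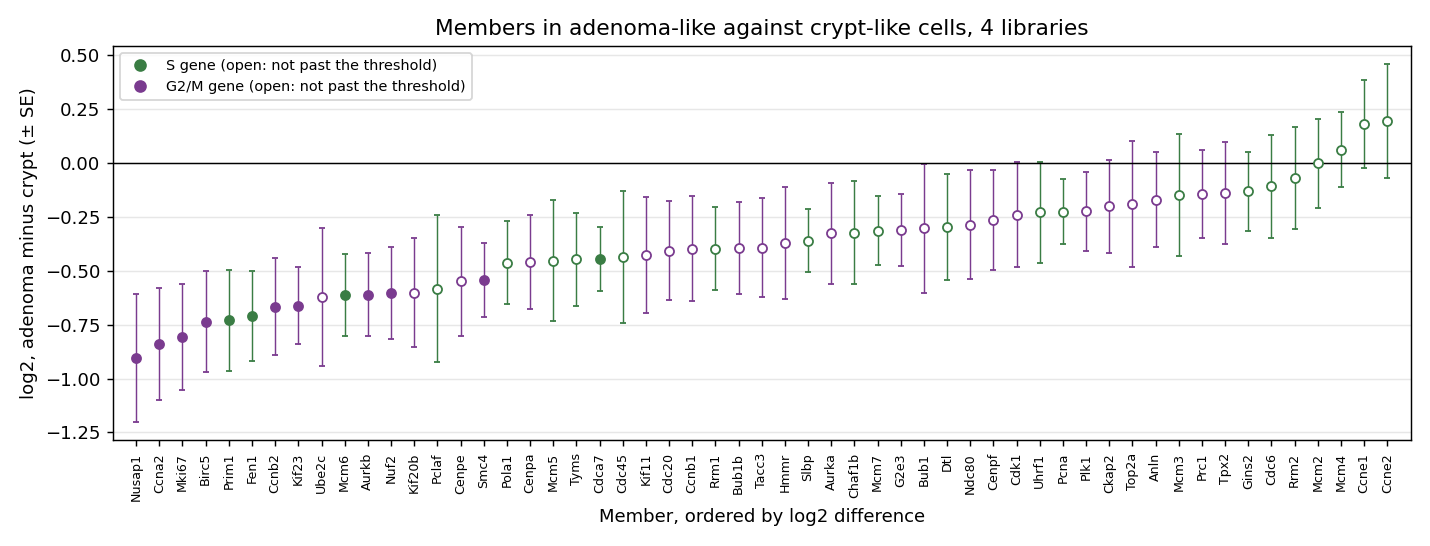
Log2 difference between adenoma-like and crypt-like cells for the 55 members from edgeR's fit over 4 libraries, with bars of 1 SE, green for S and purple for G2/M members; filled points passed the adjusted threshold. The 13 filled points lie between -0.91 and -0.44, and 3 S members lie above 0 with open points.

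Of 37 other regulators of the cycle fixed as a list beside the members, 9 were called lower and 2 higher in adenoma-like cells. The lower ones were the E2F factors E2f8 at -1.42 (SE 0.28) and E2f2 at -1.22 (SE 0.24), the G1 kinase gene Cdk6 at -0.75, the licensing factor gene Cdt1 at -0.61, Gmnn, which encodes its inhibitor geminin, at -0.45, and the CDK inhibitor gene Cdkn1b at -0.45 (SE 0.14, edgeR adjusted p = 0.0188). Lin54, Pkmyt1 and Cks2 were the others, from -0.67 to -0.63. CDK inhibitor genes went both ways, since the 2 called higher were Cdkn1c at 2.78 (SE 0.33, edgeR adjusted p = 2.19e-06) and Cdkn1a at 0.93 (SE 0.29, edgeR adjusted p = 0.0182).

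Crypt-like cells exceeded enterocyte-like cells for every member. All 55 were called higher, where 36.1% of all genes were called higher and 34.8% lower, with a median log2 difference of 3.63 for S and 4.35 for G2/M. Nusap1 had the largest, 5.21 (SE 0.42), with 0.690, 2.28, 0.463 and 2.70 CPM in enterocyte-like cells. Ndc80 followed at 5.08 (SE 0.40), with 9.77, 14.9, 21.8 and 18.7 CPM in crypt-like cells but 0 UMIs in the enterocyte-like cells of both kit 2 libraries and 4 and 13 UMIs in those of kit 3. Pclaf was at 4.96 (SE 0.43), with 244, 221, 360 and 205 CPM in crypt-like and 3.79, 6.61, 1.74 and 13 in enterocyte-like cells. The 2 smallest differences were those of Pcna at 0.55 (SE 0.15, edgeR adjusted p = 0.00336) and Slbp at 1.08 (SE 0.15). Pcna kept 54.5, 53.7, 32.1 and 38.5 CPM in enterocyte-like cells, and Slbp 32.8, 27.8, 29.6 and 30.5. Together these 2 genes made up 58.4%, 57.2%, 59.9% and 36.5% of the summed S level in enterocyte-like cells. With a mitochondrial limit of 10% in place of 20%, all 55 members were still called, and Nusap1 was at 4.32, Ndc80 at 3.81 and Pclaf at 4.03. Among the 37 other regulators, 24 were higher and 5 lower in crypt-like cells, the lower ones being Cdkn1a at -2.92, the retinoblastoma genes Rb1 at -2.09 and Rbl2 at -0.93, Cdc25a at -0.51 and Fzr1 at -0.44.

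Against enterocyte-like cells, 52 of the 55 members were called higher in secretory-like cells, where 35.3% of all genes were called higher, and 1 was called lower, where 32.6% of all genes were. The medians were 2.50 for S and 3.18 for G2/M. Nusap1 at 3.95 (SE 0.44), Ndc80 at 3.84 (SE 0.44) and Cenpf at 3.79 (SE 0.32) led. Nusap1 was at 45.2, 21.9, 29.6 and 33.9 CPM in secretory-like cells, and Ndc80 had only 7, 13, 31 and 60 UMIs there. Cenpf was at 43.1, 29.7, 49.1 and 61.8 CPM in secretory-like cells and at 1.2 to 5.31 in enterocyte-like cells. Pcna was the member called lower, at -0.46 (SE 0.16, edgeR adjusted p = 0.0148), but scaled by total UMIs alone it was at 0.00, and its 43.1, 54.6, 37.1 and 39.6 CPM in secretory-like cells overlapped the enterocyte-like values given above. Slbp at 0.27 and Ccne2 at 0.44 were not called, with Slbp at 41.7, 54.6, 48.6 and 54.4 CPM and Ccne2 at 5.56, 4.09, 4.89 and 7.35 in secretory-like cells. In lymphoid-like cells 49 members were called higher, where 32.9% of all genes were called higher, and 1 was called lower, where 31.4% were. Nusap1 at 4.01 (SE 0.59), Ndc80 at 4.00 (SE 0.74) and Hmmr, another spindle gene, at 3.77 (SE 0.61) led. These rest on few UMIs in lymphoid-like cells, 27, 15, 1 and 24 for Nusap1, 4, 3, 1 and 5 for Ndc80 and 12, 5, 0 and 17 for Hmmr. Pcna was lower in lymphoid-like cells in 4 of 4 libraries (-1.04, SE 0.22, edgeR adjusted p = 0.000349), at 29.9, 29.6, 20.5 and 12.7 CPM. The 5 members not called there were Kif23 at 0.30, Anln at 0.98, Cdca7 at 0.60, Cdc6 at 0.00 and Ccne2 at 0.00. Their lymphoid UMIs were 8, 2, 1 and 8 for Kif23, 1, 1, 0 and 2 for Anln, 13, 5, 1 and 5 for Cdca7, 1, 0, 0 and 2 for Cdc6 and 4, 2, 0 and 2 for Ccne2. Of the other regulators, 23 were higher and 7 lower in secretory-like cells, and 19 higher and 8 lower in lymphoid-like cells.

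The study compares tumors with and without epithelial Lef1. By EdU incorporation in tissue at this age, it reports more tumor cell proliferation after Lef1 deletion. In other mice, with Apc deleted from Lgr5-positive cells, it also reports higher Mki67 RNA in single adenoma cells after Lef1 deletion. RNA levels in 2 libraries per group are a different measure from EdU. For the members in adenoma-like cells, edgeR's quasi-likelihood test with the kit as a block called 0 of 55, where 0% of the 12966 genes tested were called. Xist, at 0.0712, 1178, 0.0713 and 326 CPM in these cells, was not called either. This fit could thus miss large differences, and its count of 0 sets no limit on smaller ones. An unadjusted p under 0.05 was found for 0 members and for 26 of the 12966 genes. The log2 differences, VApcMinL minus ApcMin, ran from -0.27 (Uhrf1) to 0.29 (G2e3) with a median SE of 0.24. DESeq2 called 0 as well. Of the 37 other regulators 0 were called. Xist also set the groups apart, as given above, so sex and Lef1 genotype cannot be told apart in comparisons between the groups.

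The pairs of libraries went opposite ways. In the kit 2 pair 27 of 31 G2/M members were lower in the VApcMinL library, and in the kit 3 pair all 31 were higher there. These 27 members were both, which is true of 23.7% of all 12965 genes tested with a unique name, while any opposite direction was seen for 68.6% of those genes. Summed, the G2/M genes differed by -0.25 in kit 2 and 0.34 in kit 3 on the log2 scale, and the S genes by -0.11 and 0.10. Of the S members, 13 of 24 were lower in kit 2 and higher in kit 3. The largest opposite changes were those of Nusap1 at -0.48 and 0.62, Ccna2 at -0.46 and 0.53, the kinesin gene Kif11 at -0.60 and 0.25, and the spindle gene Tacc3 at -0.40 and 0.42. Kif11 was at 23.9 and 15.8 CPM in ApcMin replicate 1 and VApcMinL replicate 1 and at 38.9 and 46.2 in the pair of kit 3, and Tacc3 at 33.8, 25.5, 31.8 and 42.7. G2/M members higher in VApcMinL in both pairs were G2e3, a ubiquitin ligase gene, at 0.28 and 0.29, Ndc80 at 0.16 and 0.21, Cdc20 at 0.13 and 0.27 and Cdk1 at 0.08 and 0.17. No member moved the same way by 0.5 or more in both pairs. Each pair has 1 library per group, so these are differences between libraries. Lef1 itself was higher in the VApcMinL library of kit 2 and lower in that of kit 3, as given above. Wnt target genes that mark the adenoma gate had the same order in adenoma-like cells, with Notum at 90.9, 416, 283 and 92.4 CPM, Nkd1 at 145, 625, 460 and 154 and Wif1 at 9.19, 222, 184 and 24.3. In both pairs these 4 genes therefore moved opposite to the G2/M sum. Whether labels of the kit 2 pair are exchanged was not tested, and every direction given for that pair rests on them.

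**Figure D5:**
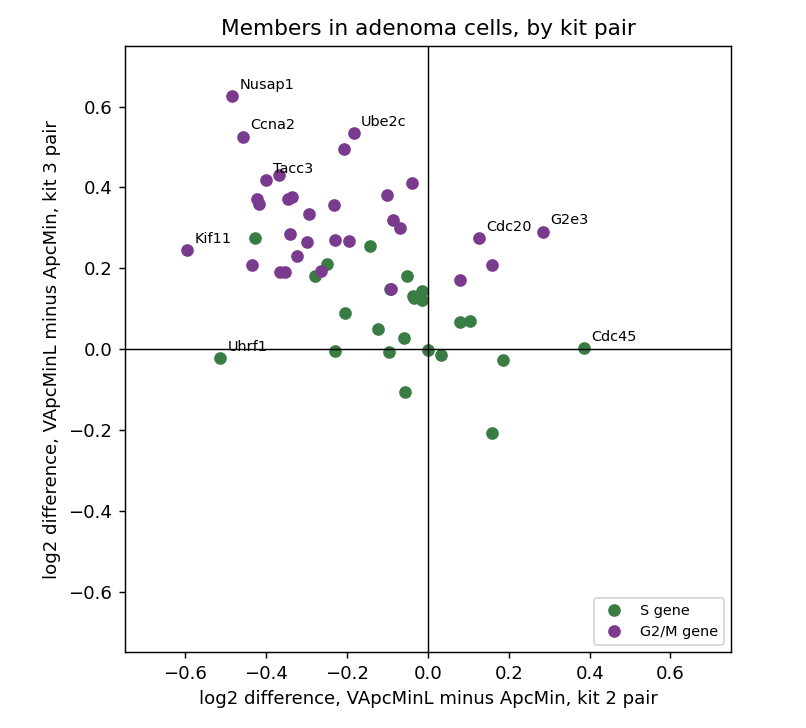
Log2 difference, VApcMinL minus ApcMin, in adenoma-like cells for each of the 55 members in the kit 2 pair (horizontal) and the kit 3 pair (vertical), green for S and purple for G2/M members. All 31 G2/M points lie above the horizontal line and 27 of them left of the vertical line.

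The shares of adenoma-like cells in each phase followed the same pairs. The G2/M share was 28.7% ± 2.48 (SD, n = 2) in ApcMin and 27.0% ± 4.76 in VApcMinL, a difference of -1.67 percentage points, made of -6.79 in kit 2 and 3.45 in kit 3. The S share was 19.0% ± 2.53 in ApcMin and 19.7% ± 1.74 in VApcMinL, a difference of 0.698 points, made of -2.32 and 3.71. Neither difference exceeded the spread between libraries (two-sided exact permutation test, p = 0.667 for both, adjusted over the 2 tests 0.667), and the smallest p that 2 libraries against 2 allow is 0.333.

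In the other gates no member was called either. The fits called 0 of 55 members in crypt-like cells, where 0.00939% of genes were called, 0 of 47 tested in enterocyte-like cells, where 0.00922% were, 0 of 55 in secretory-like cells, where 0.00917% were, and 0 of 20 tested in lymphoid-like cells, where 0.087% were. In crypt-like, enterocyte-like and secretory-like cells the only gene called was Xist. The 4 genes called in lymphoid-like cells were Xist, Tsix, Xcl1 and Gzma. At an unadjusted p under 0.05 there were 2, 6, 0 and 7 members, in that order. Of all genes tested, 200 of 10646, 132 of 10844, 247 of 10911 and 360 of 4600 were under it. In crypt-like cells the kit pairs again differed, since 41 of 55 members were higher in the VApcMinL library of kit 2 and all 55 were lower in that of kit 3, where 58.5% and 49.9% of all genes were higher in VApcMinL. Uhrf1, which keeps DNA methylation through replication, and Aurkb were lower in both pairs, at -0.42 and -0.68 and at -0.36 and -0.62. In enterocyte-like cells 54 of 55 members were higher in VApcMinL replicate 2 than in ApcMin replicate 2, as were 54.9% of all genes, with Pclaf at 13 against 1.74 CPM and Top2a at 13.7 against 4.36. Only in lymphoid-like cells did most G2/M members go the same way in both pairs, with 27 of 31 higher in VApcMinL in kit 2 and all 31 in kit 3, against 64.8% and 53.8% of all genes. Top2a was at 56.3 and 90.5 in the kit 2 pair and at 13.7 and 203 in the kit 3 pair, from 79, 49, 4 and 64 UMIs. Cenpe, a centromere kinesin gene, had the smallest p there (log2 difference 2.31, SE 0.51, edgeR adjusted p = 0.138). T-like cells made up 20.2%, 48.2%, 53.1% and 63.0% of these lymphoid-like cells, and the part of that mixture was not tested.

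The study also asks how Lef1 relates to division within adenomas. By EdU labelling and Lef1 protein staining, it reports less proliferation in Lef1-positive than in Lef1-negative adenoma cells. That was in other mice, with Apc deleted from Lgr5-positive cells. Adenoma-like cells were thinned to 10000 UMIs each and split by whether a Lef1 UMI was left, so that all cells were split at the same depth. Cells with a Lef1 UMI were 8.08% (46 of 569), 20.6% (103 of 499), 21.5% (71 of 331) and 18.4% (386 of 2101) of the adenoma-like cells. Before thinning they were less deep in 4 of 4 libraries. Their median UMIs were 17984 against 21298 in cells without, 16728 against 20078, 29936 against 36042, and 24702 against 25927. The part of this gap was not tested, nor whether a Lef1 UMI in the VApcMinL libraries marks an intact transcript. Of enterocyte-like cells at the same thinning, which should lack Lef1, 0% to 0.58% had one, with median depths of 12986 to 28979 UMIs against 19621 to 34791 in adenoma-like cells. The S genes gave 911 CPM in cells with Lef1 and 1113 in cells without in ApcMin replicate 1, 726 and 1107 in VApcMinL replicate 1, 904 and 1150 in ApcMin replicate 2, and 1164 and 1262 in VApcMinL replicate 2. They were lower with Lef1 in 4 of 4 libraries, with a mean log2 difference of -0.34 ± 0.20 (SD, n = 4, two-sided exact sign-flip permutation test, p = 0.13). The G2/M genes gave 1543 and 1579, 1095 and 1361, 1697 and 1703, and 2041 and 2097, a mean of -0.10 ± 0.14 (exact sign-flip permutation test, p = 0.13), with the widest gap in VApcMinL replicate 1 at -0.31. Both p-values are the smallest that 4 libraries allow and are 0.13 after adjustment over the 2 tests. Thinned to 20000 UMIs, the G2/M mean was 0.00 and the S mean -0.11.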

How the data were processed

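Single cells of 4 libraries were measured with the Chromium 3′ assay. The deposited values are raw UMI counts per gene and barcode, made by the authors with Cell Ranger 2.1.1 on mm10 (GRCm38) per their methods, while the headers of the kit 3 tables name a later Cell Ranger software; no ambient RNA correction is stated. Tables were joined by gene ID over 27514 genes. Barcodes with 2000 or more UMIs and at most 20% mitochondrial UMIs were kept, cells were gated by marker genes, cells meeting 2 lineages were left out, and doublets were not otherwise removed (Scrublet, an alternative, marked 34 to 142 cells per library). Adenoma and crypt gates asked for 1.5 marker UMIs per 10000 and at least 2 UMIs, and the enterocyte gate for 300 per 10000. Counts were summed per library and gate and tested over all genes with edgeR 4.0.16 (TMM scaling, filterByExpr with a minimum count of 10, quasi-likelihood), after tests on simulated data; differences within a kit used CPM with a prior of 2 counts. DESeq2 1.42.0, other scalings, filters, gates and left-out libraries were alternatives. Shares and Lef1 splits used exact permutation tests (Python 3.11.15), and scanpy 1.11.5 gave alternative phase scores. Markers that the kit 2 tables list under no such symbol were unused.

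Samples of a kit were fitted as a pair because the labels give the kit of each replicate number; their deviations from group means correlated at 0.14 in adenoma-like to 0.54 in lymphoid-like cells. The labels do not say whether the libraries of a group came from different mice. Cells holding Y-linked UMIs without Xist numbered 2148 in VApcMinL replicate 2 and 0 in VApcMinL replicate 1, so these 2 did not come from the same mice alone, while the ApcMin libraries could not be told apart in this way. The p-values measure the spread between these libraries. The members, the list of other regulators and the gates were chosen with earlier results of these data known. Values in every library are given by a fixed rule: the 4 highest members of each list in adenoma-like cells, up to 3 called members with the largest change per direction and comparison, the 4 largest opposite changes between kit pairs, members not called between gates or against the majority, and those whose promoters are shown. The 42 members not called between adenoma-like and crypt-like cells were too many for this and are given by counts, except the 3 above 0. Genes outside that rule, such as Uhrf1, Cenpe and Aurkb in the comparisons between groups, were chosen after their values were seen. Of 4 members with 2 promoters in the reference table, the first was used.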

Additional observations from a re-analysis of the deposited data

Results flagged for a closer look

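Differences between the VApcMinL and ApcMin libraries had opposite signs in the kit 2 and kit 3 pairs, and that opposition was not tested, since each pair holds 1 library per group. On the log2 scale, the S genes summed differed by -0.11 in kit 2 and 0.10 in kit 3 in adenoma-like cells, by 0.0357 and -0.64 in crypt-like, by -0.0726 and 0.88 in enterocyte-like, and by -0.15 and 0.20 in secretory-like cells. The G2/M genes summed differed by -0.25 and 0.34 in adenoma-like, by 0.20 and -0.44 in crypt-like, by -0.12 and 1.10 in enterocyte-like, and by -0.59 and 0.31 in secretory-like cells. The share of adenoma-like cells in S differed by -2.32 and 3.71 percentage points and the share in G2/M by -6.79 and 3.45. Some kit 2 differences were close to their counting error. The SE from counts alone was 0.0305 for the S sum in crypt-like cells of kit 2. In enterocyte-like cells of kit 2 it was 0.0810 for S and 0.0970 for G2/M. The signs of these differences are therefore not settled. Only lymphoid-like cells had the same sign in both pairs.

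Members were also read in cells that entered none of the comparisons. The first were epithelial cells outside the adenoma, crypt and secretory gates with enterocyte markers under 100 per 10000 UMIs. Of these, 21.8% to 38.0% per library were in G2/M, and of fibroblast-like cells 2.75% to 12.2%, both above the enterocyte-like share of the same library. Epithelial cells with enterocyte markers from 100 to under 300 per 10000 also met no gate and are not in this share. No group of this series has more than 2 libraries, so no library was examined as an outlier.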

How the results depend on the processing

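Counts of members called between crypt-like, secretory-like or lymphoid-like and enterocyte-like cells stayed within 1.5 times of their values under every alternative run. The count of 13 between adenoma-like and crypt-like cells was the least stable: it was 0 without the replicate block, 5 with total UMIs only, 9 with DESeq2, and from 1 to 18 when a library was left out, always with members lower in adenoma-like cells. Between the groups, the fit without the replicate block also called 0 members in all 5 gates, and of the named members between gates, Nusap1, Ccna2 and Mki67 (adenoma-like against crypt-like) and Pcna (secretory-like against enterocyte-like) were not called without it; the block moved no other count by over 1.5 times. The calls between the groups that follow were all higher in VApcMinL. The shares of all genes called are not given for them here, so whether members stand out cannot be told. Without the filter on low counts, 1 member (Pclaf) was called in enterocyte-like and 3 (Top2a, Ube2c, Pclaf) in lymphoid-like cells. With a mitochondrial limit of 10%, 2 (Cenpe, Top2a) were called in lymphoid-like cells. Without ApcMin replicate 1, and then without the block, lymphoid-like log2 differences were 5.12 for Ube2c, 3.58 for Birc5, 3.34 for Top2a and 3.05 for Pclaf. The ApcMin side was then 1 library of 49 lymphoid-like cells, with 1, 2, 4 and 4 UMIs of these genes.

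The difference in S share between the groups turned to -0.713 points with at least 5 UMIs, -1.62 with scanpy scores, -0.468 without thinning and -0.00276 with stricter gates, and ranged from -1.09 to 2.49 when a library was left out. That in G2/M share ranged from -5.04 to 1.69 when a library was left out. With Lef1, the G2/M difference turned to 0.00252 at 20000 UMIs. In adenoma-like cells of kit 3 the S sum difference moved to 0.0724 with the mitochondrial limit of 10% and 0.0571 with stricter gates, and the G2/M one to 0.32 with that mitochondrial limit. Pcna in secretory-like against enterocyte-like cells was at 0.00335 with total UMIs only. Scaling by total UMIs moved the median of all genes from 0.01 to 0.13 for adenoma-like against crypt-like cells, and to 0.59, 0.54 and 0.31 for crypt-like, secretory-like and lymphoid-like against enterocyte-like cells. The causes were not tested. A library left out leaves 1 in its group, which is then assumed to vary like the others. Adenoma-like cells held 12184037 UMIs or more per library, but lymphoid-like cells only 292322 to 1403592, and 35 members were too low there to be tested.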

Other observations

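In VApcMinL replicate 2, whose cells carried Xist or Y-linked transcripts, the 567 adenoma-like cells holding Xist but nothing Y-linked had 1490 CPM for S and 2489 for G2/M, and the 1251 holding Y-linked UMIs but not Xist had 1347 and 2504. Over all 4214 cells of that library, 345 held both, and the part of doublets or free RNA in this was not tested.

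Tuft-like and enteroendocrine-like cells had G2/M sums from 352 to 1078 and from 104 to 1009 CPM, from 10 to 36 and 8 to 37 cells per library, and plasma-like cells had 195 to 811. T-like cells ranged from 540 in ApcMin replicate 2 to 2729 in VApcMinL replicate 2. Endothelial-like cells had G2/M sums of 1048 and 983 in the kit 2 libraries and 358 and 329 in those of kit 3, the latter from only 8 and 6 cells with 30 and 23 G2/M UMIs.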
